A study of Mus musculus with 24 samples.

Results

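Lungs of C57BL/6 mice taken 14 days after birth were compared with lungs taken at 7 days, by their microRNAs. The comparison rests on 10 of the 24 arrays of the series: the 5 whose titles give an age of 2 weeks and the 5 whose titles give day 7. The other 14 arrays, from days 1, 4 and 42, entered the scaling, the floor for low signals and the estimate of spread. They also entered a comparison with an earlier step and the mean levels quoted for other ages. The tissue was whole lung, and the labels name no treatment and no allele beyond the strain for either age. The labels call the arrays of an age biological replicates but do not say whether animals were pooled or shared a litter, so that p-values measure the spread between these samples. The series title speaks of fetal lungs, whereas the labels of all samples give ages after birth.

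Total RNA was labelled with Cy3 and hybridised to Agilent arrays that carry 611 mouse miRNA names. Of these, the 315 that the deposited detection call found on every day 7 array or on every day 14 array were compared, and the other 296 were not. Among the 296, the names found on none of the 10 arrays numbered 248. Of the 315 names, 285 were detected on all 10 arrays. Another 24 were detected on all day 7 arrays but not on all day 14 arrays, and 6 the other way round. A name that entered through the age where it stands high is likely to differ, so the count over the 285 is given beside the Dlk1-Dio3 list, where it matters most. Of the 285, 23 rose (8.07%) and 61 fell (21.4%). Levels are log2 values of the signal per miRNA after each array was scaled to a common 75th percentile. A difference of 1 is a 2-fold change, and levels of different miRNAs are not compared because each has its own probes.

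A miRNA is cut from a hairpin in a longer transcript, and 1 strand of the hairpin, or less often both, is loaded into Argonaute. There it pairs mainly through its seed, bases 2 to 8, with messages whose output it lowers. In mice the walls of the air sacs grow septa after birth, fibroblasts at the septal tips lay down elastin and collagen, cell division then slows and the capillary bed matures. Of the miRNAs described here, the miR-29 family is known for holding back collagen and elastin messages. The miR-17-92 family is known for keeping cells dividing. The many miRNAs of the imprinted Dlk1-Dio3 region are expressed from the maternal chromosome, mostly before and shortly after birth.

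The mature sequences that carry the comparison are printed here from RefSeq on build GRCm38.p6, with the seed in capitals. RefSeq held 210 of the 315 names, 60 under the same name and 150 under a current arm name. The first set is the miR-29 family, which showed the largest rises and shares the seed AGCACCA. The gene for miR-29a lies beside 1 copy of miR-29b on chromosome 6, outside any other annotated gene span. The gene for miR-29c lies beside the other copy of miR-29b on chromosome 1, within the span of the non-coding gene A330023F24Rik.
miR-29a (chr6:31062673-31062694, minus strand): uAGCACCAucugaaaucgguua
miR-29b (chr1:195037091-195037113, plus strand, 1 of 2 copies): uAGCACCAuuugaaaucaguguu
miR-29c (chr1:195037600-195037621, plus strand): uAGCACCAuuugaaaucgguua

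The second set shows 2 seeds whose carriers moved in opposite directions. miR-125b-5p rose and miR-351 fell, although they share the seed CCCUGAG, and miR-195 rose and miR-322 fell with the seed AGCAGCA. The calls of miR-195 and miR-322 were lost when arrays were not scaled, and other limits of these calls are given further on. miR-351 and miR-322 come from the same X-linked cluster, within the span of the non-coding gene C430049B03Rik.
miR-125b-5p (chr9:41581940-41581961, plus strand, 1 of 2 copies): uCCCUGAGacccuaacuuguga
miR-351 (chrX:53053315-53053338, minus strand): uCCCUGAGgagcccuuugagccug
miR-195 (chr11:70235062-70235082, plus strand): uAGCAGCAcagaaauauuggc
miR-322 (chrX:53054306-53054327, minus strand): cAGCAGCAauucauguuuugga

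The third set holds miRNAs with large falls. miR-551b lies within the span of the protein-coding gene Egfem1. miR-433 lies within the span of Rtl1, and miR-380-3p and miR-409-3p belong to the miR-379 to miR-410 hairpins of the same imprinted region. miR-335-3p lies within the span of Mest, a paternally expressed gene, and miR-130b and miR-301a share the seed AGUGCAA.
miR-551b (chr3:29416879-29416899, plus strand): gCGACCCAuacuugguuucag
miR-380-3p (chr12:109711842-109711863, plus strand): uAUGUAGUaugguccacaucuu
miR-433 (chr12:109591781-109591802, plus strand): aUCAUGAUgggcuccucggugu
miR-409-3p (chr12:109743204-109743225, plus strand): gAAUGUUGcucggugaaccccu
miR-335-3p (chr6:30741354-30741375, plus strand): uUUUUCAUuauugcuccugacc
miR-130b (chr16:17124071-17124092, minus strand): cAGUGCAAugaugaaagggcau
miR-301a (chr11:87113054-87113076, plus strand): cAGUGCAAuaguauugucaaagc

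The arrays of day 7 were alike, with correlations of log2 values between 0.991 and 0.998. Those of day 14 correlated at 0.976 to 0.997, and replicate 5 stood apart. That array correlated at 0.976 to 0.983 with the other day 14 arrays and at 0.983 to 0.992 with the day 7 arrays. A fit without it called 110 of the 315 names, and on 104 of these its level lay between the day 7 mean and the mean of the other 4 day 14 arrays. On 88 of them it was nearer to day 7. Its median position was 37.3% of the way from day 7 to the other arrays (quartiles 28% and 46.7%), against 89.5% to 116% for each of the other 4 arrays set against the rest. Those 4 arrays helped to choose the 110 names and replicate 5 did not, so these positions are not like for like. What sets this array apart was not tested. Values without it are therefore given for the main groups that follow, and the plot of this array against the other day 14 arrays shows the pattern over the 110 names.

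**Figure D1:**
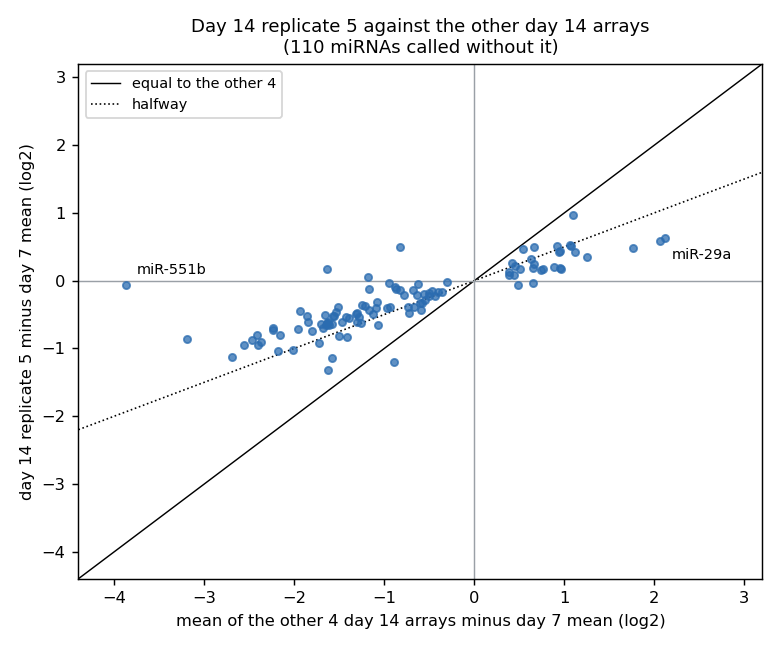
Each point is 1 of the 110 miRNAs called without day 14 replicate 5. The x axis is the mean of the other 4 day 14 arrays minus the day 7 mean (log2) and the y axis is day 14 replicate 5 minus the day 7 mean (log2), with lines for equal values and for the midpoint. On 88 of the 110 the array was nearer to day 7 than to the other day 14 arrays, and on miR-551b it stood at the day 7 level.

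The number of miRNAs detected per array was 325.8 ± 9.09 at day 7 and 319 ± 16.1 at day 14 (SD, n = 5 each). The difference of -6.6 was smaller than the spread (exact permutation test, two-sided p = 0.452). Before scaling, the 75th percentile of the names detected on all arrays averaged 1504 intensity units at day 7 (1340 to 1681 on single arrays) and 2035 at day 14 (1442 to 3076). On the log2 scale day 14 was brighter by 0.39 (exact permutation test, two-sided p = 0.0952, where the smallest p that 5 against 5 allows is 0.00794). The 10 arrays lay on all 3 slides, and each slide held both ages.

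Across the 315 names, 100 changed between day 7 and day 14 (31.7%) at an adjusted p under 0.05 in limma with Benjamini-Hochberg adjustment. Of these 23 rose (7.3%) and 77 fell (24.4%), and 53 changed at least 2-fold (16.8%), 4 of them rises and 49 falls. Without day 14 replicate 5, 29 rose (9.21%) and 81 fell (25.7%), and all 100 names called with it were among the 110. All 100 also kept their sign within each of the 3 slides. The slides split the same 10 arrays that gave the calls, so this is no separate test. Day 14 replicate 2 stood alone for its age on slide 2, and day 7 replicate 3 on slide 3. The 5 arrays of one age lay wholly apart from those of the other for 114 names (36.2%), with day 14 below for 83 (26.3%) and above for 31 (9.84%).

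The balance of rises and falls depended on the scaling. Rises made up 23% of the calls in the main values, 41.5% when arrays were scaled on the median, 46% after quantile normalization, 46.2% in the authors' deposited table and 57.8% with the 75th percentile over all mouse names. They made up 60.4% with no scaling and 17.3% when only the 10 arrays were fitted and scaled among themselves. The median difference over the 315 names was -0.06 in the main values and ran from -0.20 with only the 10 arrays to 0.32 with no scaling. A small difference therefore has no settled sign, and this holds for some values beyond this range too. With no scaling, miR-199a-3p went from -0.32 to 0.07 and miR-125a-5p from -0.34 to 0.05. With array brightness as a covariate 149 names were called, 60 rises and 89 falls, and 98 of the main 100 were among them.

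**Figure D2:**
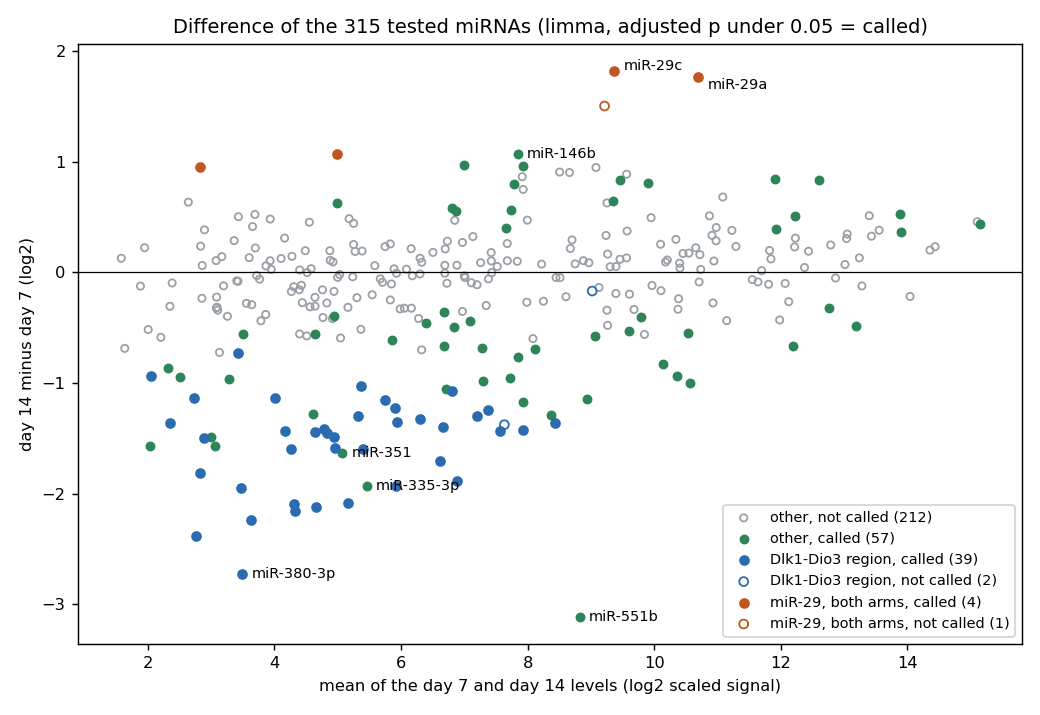
Each point is 1 of the 315 tested miRNAs, with the mean of its day 7 and day 14 levels (log2 scaled signal) on the x axis and the difference day 14 minus day 7 (log2) on the y axis. Filled points passed an adjusted p under 0.05. The falls of the Dlk1-Dio3 region (39 called, 2 not) lie below most other points, miR-29a and miR-29c lie highest, and miR-551b lies lowest.

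The miR-29 family rose most. Of its 3 main strands miR-29a and miR-29c passed the test, all 3 stood higher on every day 14 array than on any day 7 array, and both minor strands that were tested, miR-29c* and miR-29b*, rose as well (an asterisk marks the minor strand in the names of this array design). The median of the main strands was 1.77, against -0.06 over all names. miR-29a stood at 9.96, 9.78, 9.74, 9.75 and 9.82 at day 7 and at 11.81, 12.01, 11.88, 11.81 and 10.39 at day 14. All day 14 arrays were higher than all day 7 arrays, with replicate 5 nearest to them. The rise was 1.77 ± 0.23 (SE), or 3.41-fold, with an adjusted p of 2.76e-06 in limma, and 2.07 without replicate 5.

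The values of miR-29c were 8.63, 8.49, 8.42, 8.34 and 8.41 at day 7 and 10.50, 10.63, 10.60, 10.56 and 9.08 at day 14. Again the ages did not overlap and replicate 5 was the lowest of day 14. The rise was 1.82 ± 0.32, or 3.52-fold (limma, adjusted p = 0.000102), and 2.11 without that array. miR-29b stood at 8.82, 8.81, 8.68, 7.99 and 8.02 at day 7 and at 9.99, 10.12, 10.24, 10.53 and 8.94 at day 14. Its ages did not overlap either, but its 2.83-fold difference missed the threshold (limma, adjusted p = 0.074) and passed it without replicate 5 (1.76, adjusted p = 0.0413). With replicate 5 kept, it also passed when only the 10 arrays were fitted (1.37, adjusted p = 0.0044) and with slide as a block (1.64, adjusted p = 0.0436). It did not pass with quantile normalization (1.45, adjusted p = 0.0904) or with no scaling (1.89, adjusted p = 0.1125).

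The minor strand miR-29c*, which shares the hairpin of miR-29c, stood at 4.39 to 4.54 at day 7 and at 4.80 to 5.80 at day 14, a rise of 1.07 ± 0.18 (limma, adjusted p = 4.39e-05). miR-29b* stood at 1.94 to 2.63 at day 7 and at 2.87 to 3.61 at day 14, a rise of 0.95 ± 0.23 (limma, adjusted p = 0.00207). Both strands were dim, and with a normexp background correction neither passed (0.17 for miR-29c* and -0.12 for miR-29b*). The correction adds an offset of 50 units to each spot, which draws the differences of dim miRNAs toward 0. Here and below, a call lost with it therefore does not decide whether a dim miRNA changed. That correction failed on day 14 replicate 3, which its fit leaves out here and in each later mention. The main strand miR-29b passed with it (1.25, limma, adjusted p = 0.0216). The third minor strand, miR-29a*, was not tested because it was not detected on every array of either age. For days 1, 4, 7, 14 and 42 in turn, the mean level of miR-29a was 9.60, 9.63, 9.81, 11.58 and 13.41. For miR-29c the means were 7.86, 8.0, 8.46, 10.27 and 11.86.

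**Figure D3:**
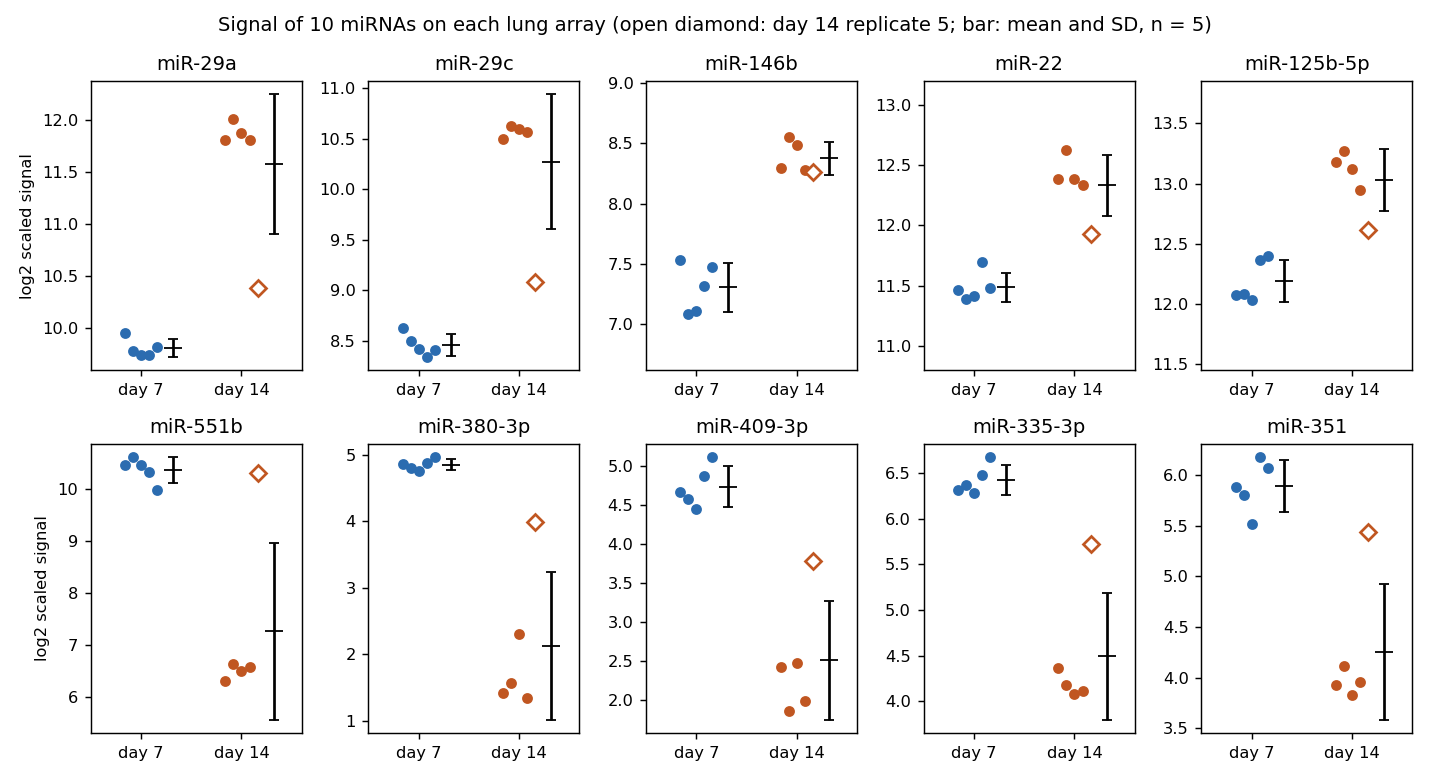
Each panel gives the log2 scaled signal (y axis) of 1 miRNA on the 5 day 7 arrays (blue) and the 5 day 14 arrays (orange), with the mean and SD (n = 5) as a black bar. Day 14 replicate 5, drawn as an open diamond, lies toward the day 7 points for 9 of the 10 miRNAs, at 10.39 for miR-29a and at 10.32 for miR-551b, and among the other day 14 arrays for miR-146b.

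Outside miR-29 the rises were smaller. Of the 8 leukocyte miRNAs tested, all of them detected on all 10 arrays, 3 rose and 0 fell, against 23 rises among the 285 names so detected (8.07%), with a median difference of 0.72 (4 rose without replicate 5, median 0.87). The lowest of the 8 was miR-342-3p, at -0.17 (limma, adjusted p = 0.69). miR-146b and miR-146a share the seed GAGAACU and are known to damp Toll-like receptor and NF-kappaB signalling. miR-146b stood at 7.53, 7.08, 7.11, 7.32 and 7.48 at day 7 and at 8.29, 8.56, 8.49, 8.28 and 8.27 at day 14. The ages did not overlap, and here replicate 5 lay with the other day 14 arrays. The rise was 1.07 ± 0.13, or 2.10-fold (limma, adjusted p = 1.73e-06). miR-146a rose by 0.81 ± 0.17 (adjusted p = 0.000472), from 9.39 to 9.63 at day 7 to 9.68 to 10.63 at day 14.

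The third riser of this list was miR-155, which is induced when macrophages and lymphocytes are activated. Its levels were 4.50 to 4.84 at day 7 and 5.17 to 5.40 at day 14, with a rise of 0.63 ± 0.20 (limma, adjusted p = 0.0189). With normexp, whose offset shrinks differences at such dim levels, the difference was 0.014 (limma, adjusted p = 0.963). miR-150, a miRNA of mature lymphocytes, differed by 0.75 and missed the threshold (adjusted p = 0.0696), but passed it without replicate 5 (0.89, adjusted p = 0.0344). The differences of the defining leukocyte miRNAs miR-142-3p (0.68, adjusted p = 0.429), miR-142-5p (0.90, adjusted p = 0.159) and miR-223 (0.30, adjusted p = 0.16) did not pass. The summed level of 6 leukocyte markers, including these 3, was 11.85 to 12.16 at day 7 and 12.19 to 12.89 at day 14. Here and below, summed levels add signals before logs are taken, so the brightest members carry most of the sum. In whole-lung RNA, more cells of a type and more RNA per cell cannot be told apart.

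Both strands of the miR-22 hairpin rose. miR-22, which lies within the span of the non-coding gene Mir22hg on chromosome 11, stood at 11.46, 11.38, 11.41, 11.69 and 11.48 at day 7 and at 12.38, 12.63, 12.39, 12.33 and 11.93 at day 14. The ages did not overlap, and the rise was 0.85 ± 0.13, or 1.80-fold (limma, adjusted p = 1.68e-05), and 0.95 without replicate 5. Its minor strand miR-22* rose by 0.97 ± 0.16 (adjusted p = 3.57e-05), with day 7 at 6.29 to 6.69 and day 14 at 6.93 to 7.81.

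Of the 5 tested members of the miR-99/100 and miR-125 families, 2 rose and 0 fell, against rises in 7.3% of all 315 names. The gene for miR-100 and 1 of the 2 copies of miR-125b lie on chromosome 9 within the span of the non-coding gene Mir100hg. miR-125b-5p stood at 12.08, 12.08, 12.03, 12.37 and 12.40 at day 7 and at 13.18, 13.27, 13.13, 12.95 and 12.62 at day 14, a rise of 0.84 ± 0.24 (limma, adjusted p = 0.00921). miR-100 rose by 0.84 ± 0.18 (adjusted p = 0.000803), from 8.88 to 9.25 at day 7 to 9.56 to 10.06 at day 14. For both, no day 14 array fell within the day 7 values. The other 3 members lay at 0.41 (miR-99a), -0.20 (miR-99b) and -0.34 (miR-125a-5p), with adjusted p values of 0.076, 0.629 and 0.334 in limma.

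The red blood cell miRNA miR-486 rose by 0.96 ± 0.25 (limma, adjusted p = 0.005), from 7.04 to 7.74 at day 7 to 7.96 to 8.83 at day 14, and lost its call with normexp (0.61). The other 2 red blood cell miRNAs did not pass. miR-451 differed by 0.46 (adjusted p = 0.131) and miR-144 by 0.22 (adjusted p = 0.895). Their summed level with miR-486 was 14.75 to 15.14 at day 7 and 15.13 to 15.82 at day 14. Blood left in the lung was not measured in any other way.

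Among the marker miRNAs of the lung's own cell types, the endothelial miR-126-3p, known to support VEGF signalling, rose. It stood at 14.91, 14.88, 14.87, 15.06 and 14.90 at day 7 and at 15.44, 15.62, 15.39, 15.26 and 15.09 at day 14, with no overlap. The rise of 0.44 ± 0.13 (limma, adjusted p = 0.00915) was lost with quantile normalization (0.05) and with only the 10 arrays fitted (0.30). The summed level of the 2 strands of its hairpin was 14.90 to 15.10 at day 7 and 15.12 to 15.65 at day 14. This sum nearly repeats miR-126-3p, because miR-126-5p stood at only 9.42 to 10.21 at day 7. The other 3 endothelial miRNAs were not called: miR-126-5p from the same hairpin (0.25), miR-221 (0.17) and miR-222 (0.47).

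Neither the 6 epithelial miRNAs of the miR-200 family and miR-205, nor the 6 multiciliated cell miRNAs, nor the miR-183 cluster (3 tested), nor miR-143 and miR-145 of smooth muscle had a member that passed in either direction. Their medians were 0.14, 0.41, 0.06 and -0.07. Without replicate 5, 1 multiciliated cell miRNA fell. The miR-200 family holds back the messages of ZEB1 and ZEB2 and so keeps epithelium epithelial, and the summed level of its 5 members was 12.91 to 12.98 at day 7 and 13.01 to 13.28 at day 14. The summed level of 5 multiciliated cell markers was 10.81 to 11.68 at day 7 and 11.19 to 11.83 at day 14, and that of both smooth muscle markers was 11.64 to 11.91 and 11.63 to 11.87. All markers in these sums were detected on all 10 arrays. The epithelial and the multiciliated list each held 1 member that was not detected on all day 14 arrays. Their lowest differences were -0.56 (epithelial) and -0.59 (multiciliated).

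Striated muscle miRNAs varied widely among arrays of 1 age. miR-1 stood at 9.08, 8.52, 8.79, 7.03 and 9.61 at day 7 and at 9.74, 8.73, 10.79, 8.42 and 10.09 at day 14, so that the ages overlapped widely. Its difference of 0.95 ± 1.02 did not pass (limma, adjusted p = 0.556), and none of the 4 tested members did. The summed level of these 4 markers was 8.38 to 10.87 at day 7 and 9.50 to 11.82 at day 14. The markers of other organs were mostly undetected: miR-124 of brain on 0 of 10 arrays, miR-9 on 1 day 14 array, and miR-122 of liver on 1 day 7 array and 3 day 14 arrays. In the list of other organs miR-192 (0.56 ± 0.15, adjusted p = 0.00614) and miR-194 (0.58 ± 0.13, adjusted p = 0.000733) rose, both of which are known from intestine and liver and lie beside each other on chromosome 19. Both calls were lost with normexp, and neither miRNA is specific to those organs.

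The let-7 family, whose members restrain cell growth and mark differentiated cells, had 1 of 9 members that rose and 0 that fell, a share near that of rises over all names (7.3%), with a median of 0.20. let-7c rose by 0.53 ± 0.19 (limma, adjusted p = 0.0325), but the call was lost with quantile normalization (0.21, adjusted p = 0.107), with slide as a block (adjusted p = 0.0509) and without any of 6 single arrays (day 7 and day 14 replicates 1, 2 and 3). In the miR-30 family 1 of 5 rose (miR-30b by 0.51 ± 0.18, adjusted p = 0.0296), in the miR-26 and miR-101 group 1 of 4 (miR-26a by 0.37 ± 0.12, adjusted p = 0.0229), and 0 members fell in either. Among 5 miRNAs related to miR-15 and miR-16, 1 rose (miR-195 by 0.39, adjusted p = 0.0211). Each of these counts rests on 1 member, and those calls were lost without single arrays: miR-30b without day 7 replicate 1 or 3 or any of day 14 replicates 1 to 4, miR-26a without day 7 replicate 3 or any of day 14 replicates 1 to 3, and miR-195 without day 14 replicate 2 or 3. The calls of miR-30b, miR-26a and miR-195 were also lost with normexp and with only the 10 arrays fitted. That of miR-26a was lost with quantile normalization too (0.08), and that of miR-195 with no scaling (limma, adjusted p = 0.0614).

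The Dlk1-Dio3 region held most of the large falls. Of its 76 names on the array 41 were tested, and 39 of these fell and 0 rose, against 24.4% falls over all 315 names and 38 of the 274 names outside the region (13.9%). The median difference was -1.43, a 2.70-fold fall, and 37 of the 39 fell at least 2-fold. Without replicate 5 the count was again 39 and the median -1.62. Because 12 of the 41 were not detected on all day 14 arrays, the count over the 29 detected on all 10 arrays was taken as well: 27 fell, with a median of -1.42, against 21.4% of the 285 such names. Of the 35 names of the region that were not tested, 31 were detected on none of the 10 arrays.

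The largest fall of the region was that of miR-380-3p, which stood at 4.85, 4.80, 4.76, 4.88 and 4.97 at day 7 and at 1.41, 1.58, 2.31, 1.35 and 3.99 at day 14. It was detected on 2 of the 5 day 14 arrays, and the lowest values lie just above the floor of 1.18 at which signals were held. The fall was -2.72 ± 0.36, or 6.61-fold (limma, adjusted p = 3.73e-06), and -3.19 without replicate 5. miR-433 stood at 3.72, 3.67, 3.88, 4.40 and 4.11 at day 7. At day 14 it was at the floor on 3 arrays, at 1.52 on replicate 3 and at 2.84 on replicate 5, the only array on which it was detected. Its fall of -2.38 ± 0.31 (limma, adjusted p = 2.76e-06) therefore rests on values held at the floor, and was -2.65 with a floor of 1 intensity unit.

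miR-409-3p stood at 4.67, 4.59, 4.45, 4.88 and 5.12 at day 7 and at 2.42, 1.86, 2.48, 1.99 and 3.79 at day 14. All day 14 arrays were below all day 7 arrays, and the fall was -2.23 ± 0.28 (limma, adjusted p = 2.28e-06). A pair of brighter members, detected on all arrays, shows the same order without the floor: miR-410 fell from 6.81 to 7.07 at day 7 to 4.30 to 6.16 at day 14 (-1.93 ± 0.26), and miR-431 fell from 6.08 to 6.40 to 3.55 to 5.29 (-2.08 ± 0.25). miR-543 was detected on all day 7 arrays and on no day 14 array and fell at least 3.52-fold. The rule that named the 12 largest falls without overlap between the ages also took miR-541 (-2.15), miR-411* (-2.12), miR-154* (-2.09), miR-496 (-1.95) and miR-376a (-1.89), so that 11 of the 12 came from the region.

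Along chromosome 12, 38 of the 41 names could be placed, in 3 groups of hairpins. The first, chr12:109585789-109595388, lies across Rtl1, whose message its miRNAs pair with because they are transcribed from the opposite strand. It had 9 tested names, of which 8 fell, with a median of -1.38. The miR-370 hairpin (chr12:109618258-109618336) stands alone and fell by 0.73 on the log2 scale. The third group, chr12:109709060-109743795, runs from miR-379 to miR-410, and the span of the non-coding gene Mirg covers miR-154, miR-541, miR-409 and miR-410. It had 28 tested names from 21 hairpins, of which 27 fell, with a median of -1.45 and a range from -2.72 to -0.17. At the 2 ends of the region miR-337-3p and miR-337-5p of the first hairpin fell by 1.02 and 1.15 on the log2 scale, and miR-410 of the last hairpin by 1.93, as the plot by hairpin position shows.

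**Figure D4:**
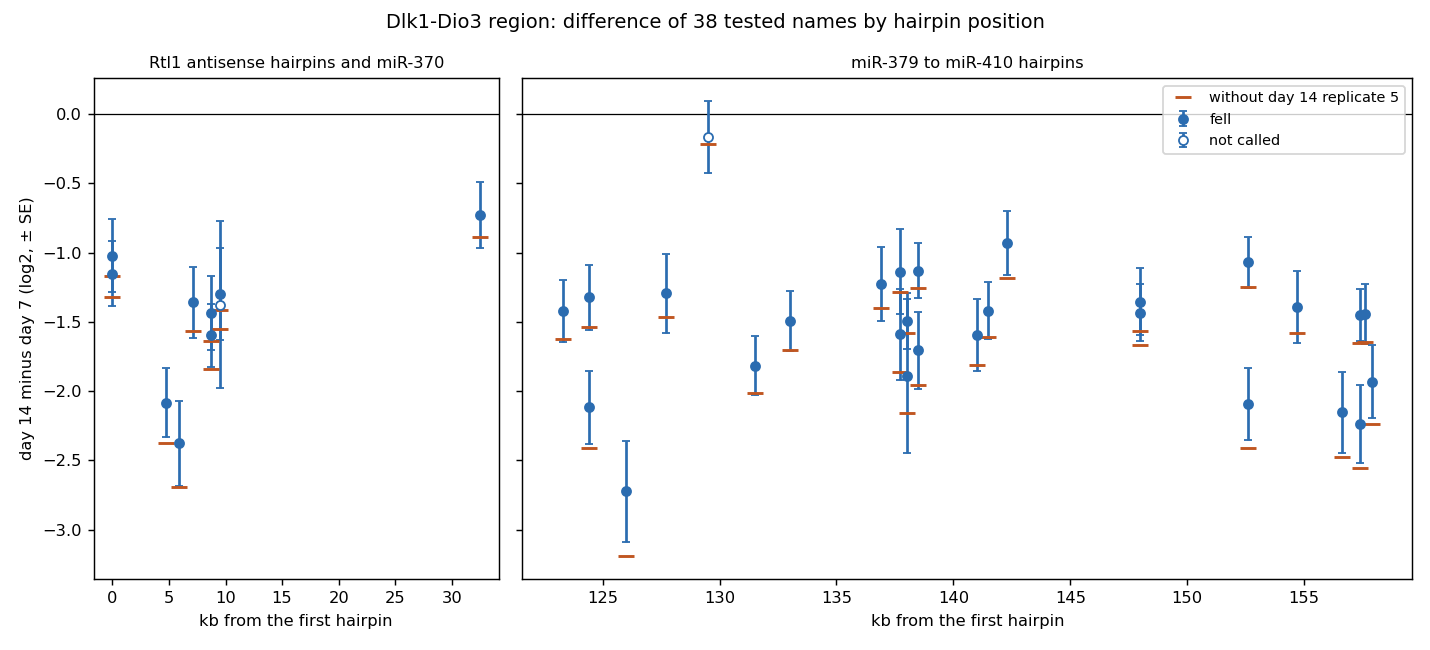
The x axis is the distance in kb from the first hairpin of the Dlk1-Dio3 region and the y axis the difference day 14 minus day 7 (log2, ± SE) of 38 tested names. Filled points fell at an adjusted p under 0.05, open points did not pass, and orange bars give the values without day 14 replicate 5. miR-494, at -0.17, lies apart from its neighbours.

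The 2 members of the region that did not pass differed from each other. miR-136 stood at 7.94 to 8.74 at day 7 and at 6.56 to 7.65 at day 14, with no overlap, but its standard error was large (-1.38 ± 0.60, limma, adjusted p = 0.0895). Its minor strand miR-136* fell (-1.30 ± 0.33, adjusted p = 0.00386). miR-494 stood at 9.03, 9.18, 8.75, 9.12 and 9.45 at day 7 and at 8.92, 9.0, 8.54, 9.09 and 9.13 at day 14. The ages overlapped and the difference was -0.17 ± 0.26 (limma, adjusted p = 0.694), while miR-329 and miR-543 on its 2 sides fell by 1.29 and 1.82 on the log2 scale. The probes of miR-494 were not checked for signal from other sequences.

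The region fell under each scaling, with medians from -1.05 with no scaling to -1.57 with only the 10 arrays. Within slides, its median was -1.76 on slide 1, -1.68 on slide 2 and -0.92 on slide 3, which holds day 14 replicate 5. With normexp the median was -0.62 and 24 of the 41 were called, and the calls of miR-433 (-0.46), miR-409-3p (-0.54), miR-541 (-0.64), miR-496 (-0.48) and miR-543 (-0.38) were among those lost. Because the offset of normexp draws the differences of dim miRNAs toward 0, these losses do not decide on the falls. The call of miR-376a was lost with no scaling (adjusted p = 0.152).

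Some, but not all, imprinted miRNAs outside the Dlk1-Dio3 region fell too. The 2 strands of the miR-335 hairpin lie within the Mest gene on chromosome 6. miR-335-3p stood at 6.31, 6.37, 6.28, 6.48 and 6.68 at day 7 and at 4.36, 4.18, 4.08, 4.12 and 5.72 at day 14. There was no overlap, and the fall was -1.93 ± 0.27, or 3.81-fold (limma, adjusted p = 6.28e-06), and -2.24 without replicate 5. miR-335-5p, at 10.99 to 11.19 at day 7 and 9.80 to 10.58 at day 14, fell by less (-1.0 ± 0.18, adjusted p = 0.000133), and its call was lost with no scaling. miR-483, hosted by Igf2, differed by 0.13 (adjusted p = 0.766). miR-298 and miR-296-5p, neighbours in the imprinted Gnas region of chromosome 2 and in no list, fell. miR-298 was detected on all day 7 arrays (2.65 to 3.01) and on no day 14 array, a fall of at least 2.89-fold, and miR-296-5p fell by 1.05 on the log2 scale (adjusted p = 0.003).

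The largest difference of the whole comparison was that of miR-551b. It stood at 10.47, 10.63, 10.47, 10.34 and 9.98 at day 7 and at 6.31, 6.64, 6.50, 6.57 and 10.32 at day 14. On 4 day 14 arrays it lay far below day 7, and on replicate 5 it lay among the day 7 values, so the ages overlapped. The fall was -3.11 ± 0.60, or 8.63-fold (limma, adjusted p = 0.000258), and -3.87 without replicate 5 (adjusted p = 1.59e-07). Within slides it was -3.96, -3.66 and -2.06. For days 1, 4, 7, 14 and 42 in turn, the mean level was 8.49, 9.68, 10.38, 7.27 and 4.59.

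Falls also came from clusters and families outside the imprinted regions. Of the 10 tested members of the miR-17-92 cluster and its paralogues, 5 fell and 0 rose, against falls in 24.4% of all names and 13.9% of those outside Dlk1-Dio3. The median was -0.45, and all 10 were detected on all arrays. miR-18a, which comes from the cluster on chromosome 14, stood at 8.55, 8.58, 8.44, 8.56 and 8.44 at day 7 and at 7.11, 7.22, 7.39, 7.10 and 7.90 at day 14. The ages did not overlap and the fall was -1.17 ± 0.26, or 2.25-fold (limma, adjusted p = 0.000994). miR-17 fell by 0.61 (adjusted p = 0.000497), miR-20a by 0.55 (adjusted p = 0.00809) and miR-20b by 0.53 (adjusted p = 0.0196) on the log2 scale. These smaller falls have the seed AAAGUGC in common, of whose 5 carriers 4 fell. The calls were lost with no scaling, where 0 of the 10 members passed, and miR-20b lost its call without day 14 replicate 4. That of miR-17 was also lost with quantile normalization (-0.19) and with normexp (-0.41).

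All 4 members of the miR-130 and miR-301 family fell, with a median of -0.91, against falls in 24.4% of all 315 names. miR-301b stood at 3.81 to 3.89 at day 7 and at 1.71 to 2.93 at day 14 (-1.57 ± 0.19, adjusted p = 1.90e-06), and was detected on 4 of the 5 day 14 arrays. With normexp its difference was -0.40 and the call was lost (adjusted p = 0.224). miR-130b, beside it on chromosome 16, stood at 7.77, 7.74, 7.69, 7.93 and 7.83 at day 7 and at 6.73, 6.74, 6.87, 6.55 and 7.14 at day 14. Its fall was -0.98 ± 0.16 (limma, adjusted p = 3.53e-05), with no overlap. miR-301a, within the span of Ska2, fell by 0.83 on the log2 scale (adjusted p = 0.0325), a call lost without any of 8 single arrays, all but day 7 replicate 5 and day 14 replicate 5. miR-130a fell by 0.49 (adjusted p = 0.00349). With no scaling the calls of miR-301a (-0.44) and miR-130a (-0.10) were lost.

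In the X-linked miR-322 cluster, whose miRNAs hold back cell-cycle messages, 4 of 10 tested members fell and 0 rose, against falls in 24.4% of all names. miR-351 stood at 5.88, 5.80, 5.52, 6.18 and 6.07 at day 7 and at 3.93, 4.11, 3.83, 3.96 and 5.44 at day 14. The lowest day 7 value was just above replicate 5 of day 14, and the fall was -1.64 ± 0.28, or 3.11-fold (limma, adjusted p = 6.56e-05). miR-503 fell by 1.29 on the log2 scale (adjusted p = 0.00541). miR-322 and its minor strand miR-322* both fell by 0.67. With no scaling the calls of miR-503 (-0.90), miR-322 (-0.28) and miR-322* (-0.28) were lost. With normexp those of miR-351 (-0.65, adjusted p = 0.0548) and miR-322* (-0.48) were lost, and miR-322* was also lost with quantile normalization (-0.39). The median of the cluster was -0.30 but above 0 with no scaling (0.09), with quantile normalization (0.03) and in the authors' deposited table (0.03), so the cluster as a list has no settled direction.

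Of the 5 strands of miR-199 and miR-214, known from fibroblasts and made in part from the Dnm3os transcript, 4 fell, with a median of -0.93. Over all 315 names 24.4% fell, and of those outside Dlk1-Dio3 13.9%. miR-214 stood at 9.36, 9.41, 9.27, 9.72 and 9.77 at day 7 and at 8.25, 8.51, 8.08, 7.97 and 9.02 at day 14. The ages did not overlap and the fall was -1.14 ± 0.33 (limma, adjusted p = 0.0088). miR-199a-5p fell by 0.93 (adjusted p = 1.45e-05) and miR-214* by 0.96 (adjusted p = 0.00225). The call of miR-199a-3p (-0.32 ± 0.12, adjusted p = 0.0457) was lost without each single array other than day 14 replicates 2 and 5, its sign turned with no scaling (0.07), and miR-199b* did not pass (-0.10). With no scaling 1 of the 5 was called, and the call of miR-214* was also lost with quantile normalization (-0.63) and normexp (-0.31). The summed level of miR-199a-3p, miR-199a-5p and miR-214 was 13.24 to 13.44 at day 7 and 12.68 to 13.12 at day 14.

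In the miR-181 family miR-181d (-0.69 ± 0.15, adjusted p = 0.00065) and miR-181b (-0.58 ± 0.21, adjusted p = 0.0339) fell, the latter with its call lost without any of 7 single arrays (day 7 replicates 1, 4 and 5 and day 14 replicates 1 to 4), and miR-181a and miR-181c lay at 0.04 and 0.05. With no scaling both calls were lost (-0.31 for miR-181d and -0.19 for miR-181b), and that of miR-181b also with quantile normalization (-0.55) and normexp (-0.49). The median of the 4 turned above 0 with no scaling and with the 75th percentile over all names. The miR-23/27/24 clusters (5 tested), the miR-148 and miR-152 family (3 tested), the Hox cluster miRNAs (2 tested) and the Sfmbt2 cluster (15 tested) had no called member with all arrays, and miR-24 rose without replicate 5. The embryonic stem cell clusters had 0 of 22 names tested. The counts of the lists with several falls did not change without replicate 5: 5 for the miR-17-92 list (median -0.49), 4 for miR-130 and miR-301 (median -1.0), 4 for the miR-322 cluster (median -0.27) and 4 for miR-199 and miR-214 (median -1.09). The plot of list members sets all groups side by side.

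**Figure D5:**
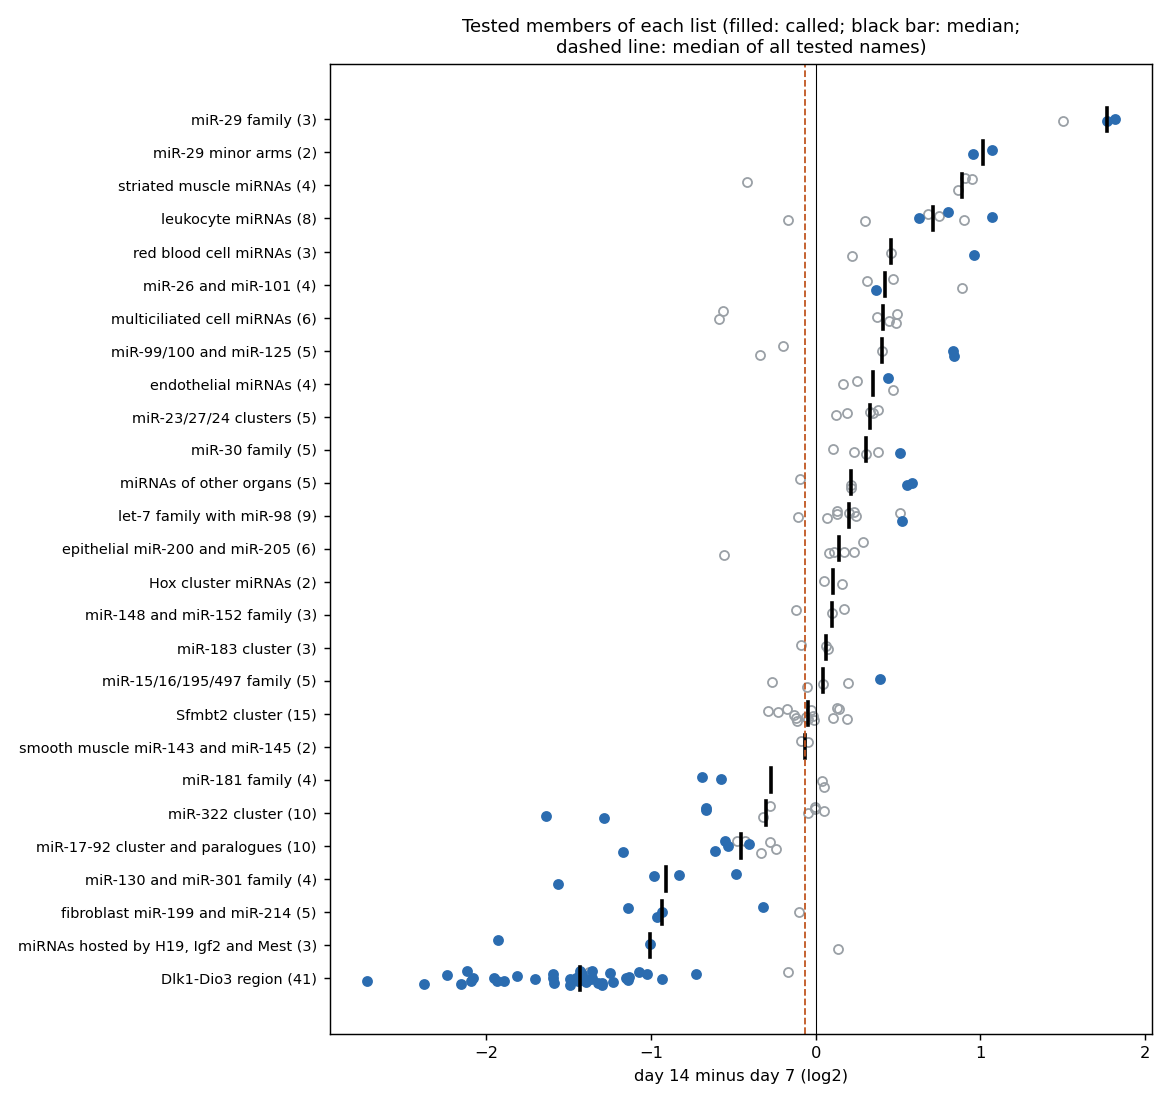
Each row is a list of miRNAs with its number of tested members, and each point is the difference day 14 minus day 7 (log2) of 1 member, filled where it passed an adjusted p under 0.05. Black bars are list medians and the dashed line is the median of all 315 names (-0.06). The miR-29 family has the highest median (1.77) and the Dlk1-Dio3 region the lowest (-1.43).

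A last comparison asked which miRNAs moved differently in this step than in the step from day 1 to day 4, which shares no array with it. The steps differ in length, 3 days for the early step and 7 for the later one, and were compared whole. The difference between the steps passed for 42 of the 315 names (13.3%), above 0 for 8 (2.54%) and below 0 for 34 (10.8%). The median over all names was -0.14. In the Dlk1-Dio3 region 18 of 41 names passed, all below 0: the region's median was -0.51 from day 1 to day 4 and -1.43 from day 7 to day 14. Divided by the length of the step, these medians were -0.17 and -0.20 per day. For miR-29a the difference between the steps was 1.74 ± 0.32 (limma, adjusted p = 0.00174), from 0.03 in the early step to 1.77. For miR-551b it was -4.29 ± 0.85 (adjusted p = 0.00306), and that miRNA stood 1.18 higher at day 4 than at day 1. miR-380-3p (-2.21) and miR-433 (-1.59) were the next below 0, and miR-29c (1.67) and miR-29b* (0.99) the next above 0. With no scaling only 12 names passed, and of these 6 named miRNAs miR-551b and miR-433 kept their call.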

How the data were processed

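Per the labels' protocols, total RNA of whole lung was extracted with miRNeasy and labelled with Cy3, and the deposited intensity values are those of Agilent Feature Extraction 10.7.1.1 (file headers and submitters' processing notes), which gives each miRNA a total gene signal and a detection call. The deposited series table holds log2 values with a median of 2.41 in every column; how it was centred is not given in the sources used here, and it served as an alternative. Control spots and the 39 herpesvirus names were left out of the tests, and probes were named as in the array design. Each array's total gene signal was divided by its 75th percentile over the 226 mouse names detected on all 24 arrays and multiplied by a common factor of 1415.8. Values were held at 2.27 or above (log2 1.18) before logs were taken. limma 3.58.1 in R 4.3.3 fitted the 5 ages over 24 arrays (19 residual degrees of freedom), with Benjamini-Hochberg adjustment over 315 names. The number of arrays limits the precision. No spot of a miRNA was saturated.

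The members and lists were chosen with earlier results of these data known. Named miRNAs are the 12 largest rises and 12 largest falls among called names whose higher age had all its arrays detected and whose ages did not overlap, all tested members of lists of at most 5, up to 4 called members of longer lists, and the 3 largest step differences each way. Other miRNAs, among them the gene neighbours miR-298 and miR-296-5p, miR-136 and miR-494, were named after their values were seen. A bound is the mean of the higher age against a value per array of the lower age. That value is the highest of the floor, the lowest signal of any name called detected on that array, and the miRNA's own signal. The normexp alternative used the median spot and background signals with an offset of 50, since no mean spot signal is in the columns used here. It failed on 2 arrays (median corrected spot 962 to 1520, against 67.4 to 81.7 elsewhere), which were left out of that fit. The script was tested on simulated data. Alternatives covered scaling, background, filters, floor, slide, brightness and single arrays. Samples with the same replicate number did not deviate together.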

Additional observations from a re-analysis of the deposited data

Results flagged for a closer look

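Some arrays lay far from the other 4 of their age by Dixon's ratio, which chance alone exceeds in about 1 in 20 groups. Most of these values came from day 14 replicate 5, the array described above. It was lower than the other day 14 arrays for miR-29c (9.08, others 10.50 to 10.63), miR-29a (10.39, others 11.81 to 12.01), miR-29c* (4.80, others 5.64 to 5.80), miR-30b (11.93), miR-222 (6.53), miR-101a (9.32, others 10.03 to 10.28) and miR-101b (7.83). It was higher than the others for miR-551b (10.32, others 6.31 to 6.64), miR-433 (2.84), miR-541 (4.52), miR-154* (4.55), miR-431 (5.29), miR-335-3p (5.72), miR-351 (5.44), miR-503 (8.63), miR-322 (12.32) and miR-214* (3.65). On day 14 replicate 2, miR-221 (9.71) and miR-181c (9.55) were higher than on the other arrays, and on day 14 replicate 1 miR-219 (5.95) was lower.

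At day 7, replicate 4 was higher for miR-195 (11.89), miR-126-3p (15.06), miR-10a (10.82) and miR-130a (13.58), and replicate 2 for miR-192 (6.89). Replicate 3 was lower for miR-126-5p (9.42, others 10.04 to 10.21), miR-222 (6.26), miR-143 (11.50) and miR-148b (7.62), and replicate 5 for miR-15a (12.17).

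The difference of the step from day 7 to day 14 from the step between days 1 and 4 was tested in limma over all 315 names. It was 1.74 for miR-29a, 1.67 for miR-29c (adjusted p = 0.0195) and 0.99 for miR-29b* (adjusted p = 0.0433). It was -4.29 for miR-551b, -2.21 for miR-380-3p (adjusted p = 0.0122) and -1.59 for miR-433 (adjusted p = 0.0195).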

How the results depend on the processing

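The count of 100 called miRNAs was 53 with normexp (2 arrays left out) and 156 when only the 10 arrays were fitted. It stayed within 1.5 times of 100 under the other settings, and between 88 (without day 14 replicate 1 or 3) and 110 (without day 14 replicate 5) when 1 array was left out. The count of differences between the steps fell from 42 to 12 with no scaling. The brightness difference of 0.39 was lowest, at 0.22, with day 14 replicate 3 left out and highest, at 0.50, with day 14 replicate 2 left out (exact permutation test, two-sided p = 0.0238, 5 against 4). The sign turned for the median of the miR-181 family (0.0057 with the 75th percentile over all mouse names, 0.12 with no scaling), for that of the miR-322 cluster (0.09 with no scaling, 0.03 with quantile normalization and in the deposited table), for miR-199a-3p (0.0681 with no scaling) and for miR-29b* (-0.12 with normexp). Counting lists near 0, the median of 9 lists took the other sign under some setting, among them the miR-15 and miR-16 list (from 0.04 to -0.11 with quantile normalization) and the Sfmbt2 cluster (from -0.05 to 0.37). The cause of these changes was not tested. Among the other values of single names and lists under alternatives, 3605 kept their side of the threshold or moved by less than the spread, 96 of these with the other sign, 169 lost a call, 111 gained one and 41 moved by more than the spread. With the replicate number as a block 98 names were called, 23 rises and 75 falls; the deviations of same-numbered samples correlated at 0.20, -0.36, -0.21, 0.12 and 0.18, so that the numbers do not pair the samples. Low signal over background limits miRNAs near the floor, such as miR-433 and miR-298, to bounds or floor-dependent values.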

Other observations

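Called miRNAs that belong to no list numbered 23 of 139 such names, 6 rises and 17 falls. Over all 315 names 31.7% were called, 7.3% as rises and 24.4% as falls, so names in no list were called less often. Among the rises, miR-338-3p differed by 0.80 ± 0.23 (limma, adjusted p = 0.00975), miR-140*, from a hairpin known from cartilage, by 0.64 ± 0.18, miR-31 by 0.56 ± 0.13 and miR-185 by 0.40 ± 0.12, and the other two were the strands of miR-22. Among the falls, miR-106b* differed by -1.49 ± 0.26 (adjusted p = 6.86e-05), miR-455 by -0.95 ± 0.28, miR-193b by -0.76 ± 0.27 and miR-210, which is induced by low oxygen, by -0.44 ± 0.12 (adjusted p = 0.00664). miR-135b was detected on 4 of the 5 day 14 arrays and fell by 1.28 on the log2 scale, with day 14 replicate 5 (5.42) within the day 7 values of 4.92 to 5.83.

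Both strands of a hairpin were tested for 71 hairpins, and their differences had the same sign for 61. Both strands were called for 19, of which 10 lie in the Dlk1-Dio3 region, and 18 of the 19 changed in the same direction. The exception was let-7c, which rose by 0.53, with let-7c-1*, which fell by 0.95 on the log2 scale and was detected on 3 of the 5 day 14 arrays. let-7c can also come from other hairpins. The strands of miR-322 fell by the same amount (0.67 each), whereas miR-335-5p fell by 1.00 and miR-335-3p by 1.93.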
